A study of Mus musculus with 6 samples.

Results

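The genes that encode the nuclear subunits of the oxidative phosphorylation system were compared between mouse embryonic stem cells (ESCs) and epiblast-like cells (EpiLCs). Members were taken by symbol, as every gene whose name begins with Nduf, Uqcr, Atp5 or Cox4 to Cox8, together with Sdha, Sdhb, Sdhc and Sdhd. This gave 92 of the 24736 genes in the deposited table, of which 87 were among the 14468 genes with enough counts to be tested. Symbols placed 38 genes in complex I, 4 in complex II, 8 in complex III, 18 in complex IV and 15 in complex V. The remaining 9, Ndufaf1 to Ndufaf8 and Atp5s, are assembly or coupling factors that the symbol rule takes in and that are not subunits of a finished complex.

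Oxidative phosphorylation couples the oxidation of NADH and succinate to ATP synthesis in the inner mitochondrial membrane. Electrons enter through complex I (NADH dehydrogenase) or complex II (succinate dehydrogenase), pass by ubiquinone to complex III and by cytochrome c to complex IV, and the proton gradient so formed drives complex V, the ATP synthase. Complexes I, III, IV and V are built from nuclear and mitochondrially encoded subunits, whereas all subunits of complex II are nuclear. In the early embryo, naive pluripotent cells are known for using both respiration and glycolysis, and cells of the post-implantation epiblast for relying more on glycolysis.

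Polyadenylated RNA was sequenced from 3 biological replicates of each group, and the genotype of both is wild-type, which in this study is the XY HM1 TetON line. ESCs (0 h, undifferentiated) were kept in knockout DMEM with 10% serum and 1000 U/ml LIF, on inactivated embryonic fibroblast feeders according to the culture methods. EpiLCs (48 h) were moved to N2/B27 medium holding 10 ng/ml bFGF and 5 μM LGK974, which blocks WNT secretion. Both groups come from one cell line. Medium and time differ between them, and feeders and growth surface may differ too. By the culture methods, cells are separated from feeders and plated on gelatin-coated dishes to start differentiation. The effects of these differences cannot be told apart here.

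Libraries held between 16967741 and 35096210 expected counts. All 6 ESC markers were lower and all 5 EpiLC markers higher in EpiLCs, while Pou5f1, expressed in both states, had a log2 fold change of 0.07 that did not pass the test. The other two markers of both states, Sox2 and Sall4, were lower in EpiLCs, with log2 fold changes of -1.15 and -0.27. ESC replicate 2, the library with the fewest counts, stood apart in its fibroblast markers. The 10 markers summed to 292, 1461 and 103 TPM (transcript abundance scaled for length and library) in ESC replicates 1 to 3 and to between 80.5 and 88.8 TPM in EpiLCs, 4 of the 9 tested were lower in EpiLCs, and Lum was at or near 0 in every library. Primitive endoderm markers summed to 27.2 to 51.1 TPM in ESCs and 8.48 to 9.67 TPM in EpiLCs, with 3 of 5 lower. Their part in the results was not tested, and counts of members are given with and without ESC replicate 2. In bulk RNA, fewer cells of a type and less RNA per cell cannot be told apart.

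Of the 87 genes tested, 30 (34.5%) were lower in EpiLCs, 2 (2.30%) were higher and 55 did not pass the test (edgeR's quasi-likelihood test, Benjamini-Hochberg adjusted p at most 0.05 over all genes). Across all 14468 genes tested, 22.8% were lower and 22.6% higher, 45.4% together. The members' share of lower calls lay above the background and their share of higher calls below it, and fewer of them were called in all (36.8%). The shifts were small. Fold changes are EpiLC over ESC and are given with their SE, and levels are given with the SD of 3 libraries. The median log2 fold change was -0.16 (interquartile range -0.30 to -0.04), against 0.00 (-0.42 to 0.36) over all genes tested. Only Ndufa4l2 moved by more than 1 on the log2 scale, while 3257 of the 14468 genes tested did. Levels in TPM did not overlap between groups for 37 of the 87 that were lower in EpiLCs and for 13 that were higher, where 25.6% and 33.8% of all genes tested did so.

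Abundance and transcript length were set beside these counts. Among the 75 members with a mean of at least 50 TPM, 27 were lower and 2 higher, whereas 21.5% of the 3383 genes of that abundance were lower and 22.1% higher. The interquartile range of log2 fold changes was -0.28 to -0.02 for these members and -0.20 to 0.20 for genes of that abundance. No such member moved by more than 1 on the log2 scale, while 224 of the 3383 did. Levels did not overlap for 32 of the 75 that were lower and 12 that were higher, against 806 and 1276 of the 3383. Members are short transcripts, with a median effective length 0.229 times that of the library median against 0.987 for all genes tested. With an offset for length in each library, 26 members were lower and 4 higher, against 23.6% and 22.4% of all genes. Tests on log2(TPM + 1) with limma gave 28 lower and 6 higher, against 19.7% and 26.6% of all genes, and scaling by library totals alone gave 23 lower and 4 higher, against 20.6% and 25.5%. Without ESC replicate 2, 29 were lower and 4 higher, against 24.5% and 24.3% of all genes, and 26 of the 30 lower calls were kept. Without EpiLC replicate 1 or 2 the number of lower calls dropped to 18 each, and without EpiLC replicate 3 to 20, while the share of all genes called lower dropped to 14.2%, 16.3% and 17.2%. All 30 lower genes had a negative and both higher genes a positive fold change in each of the 17 fits run, and 16 of the 30 passed the test in all of them.

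**Figure D1:**
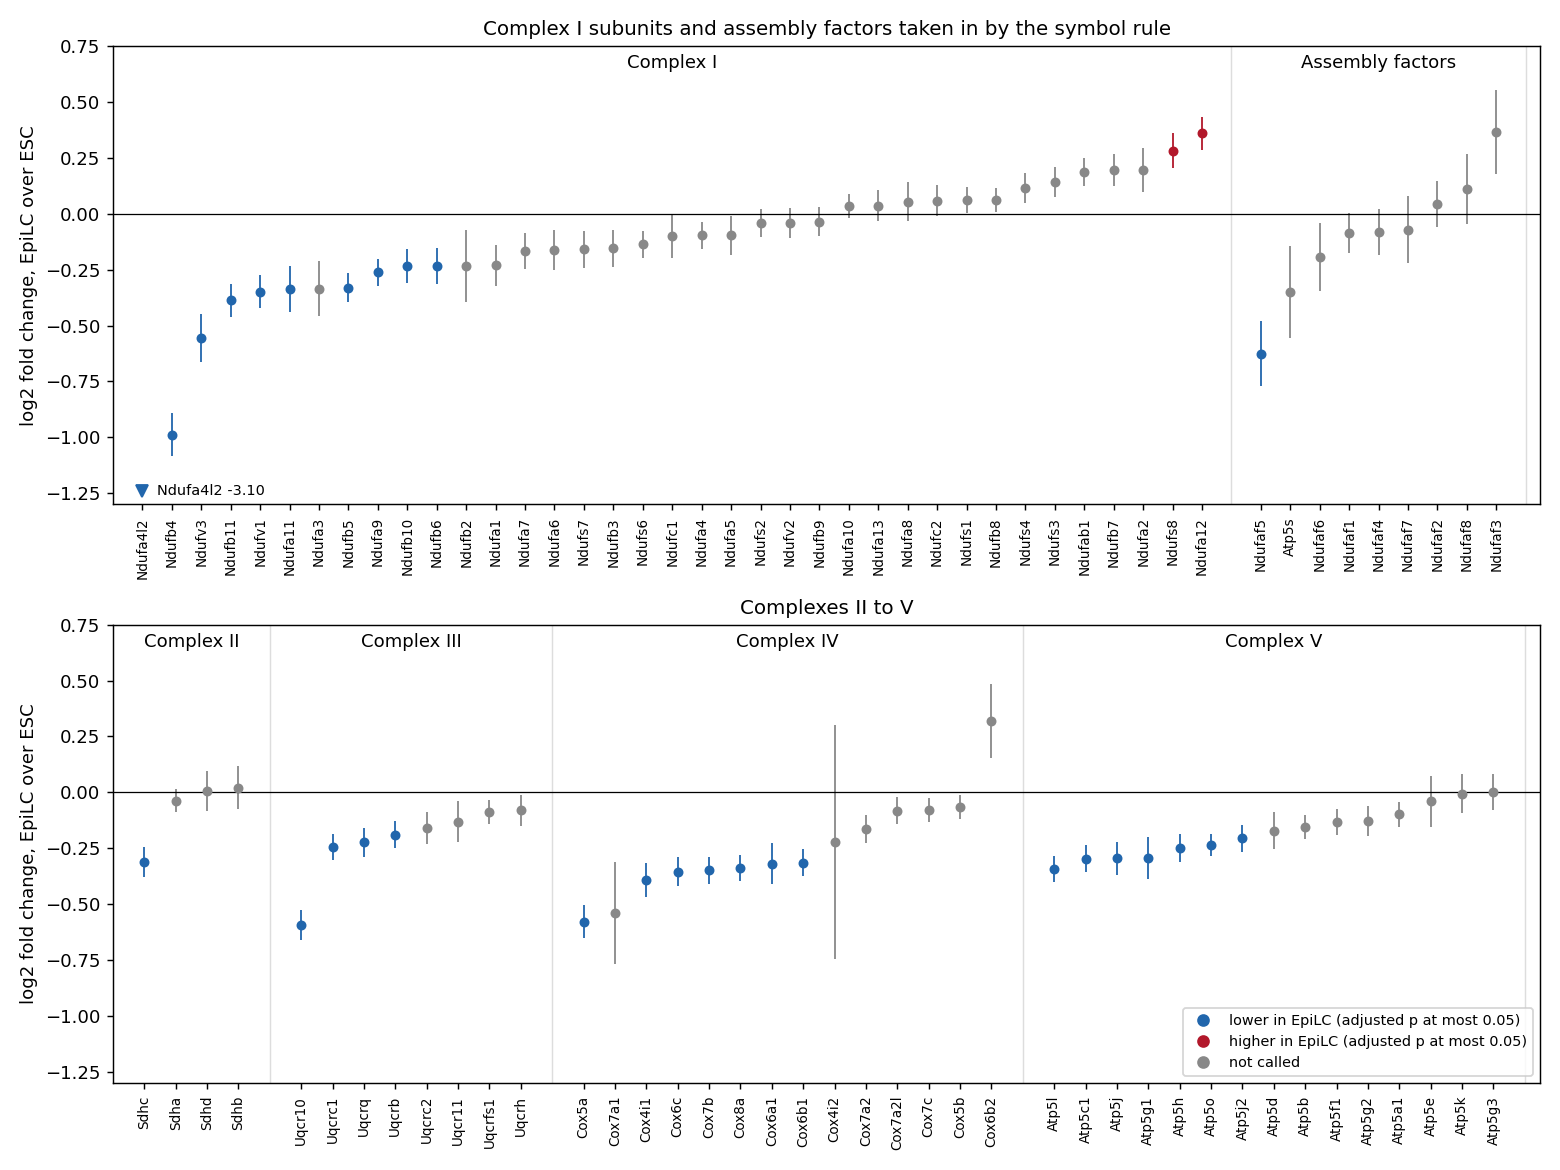
Log2 fold change (EpiLC over ESC, y axis) of each of the 87 tested members, ordered within its complex along the x axis, where points are edgeR estimates from 3 libraries per group and bars are 1 SE. Blue points passed the test as lower, red as higher and grey did not pass, and Ndufa4l2, at -3.10, is drawn at the lower edge. The 2 red points, Ndufa12 and Ndufs8, both belong to complex I, and all 8 points of complex III lie below 0. Cyc1, a complex III gene outside the symbol rule, is not drawn.

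Summed over the genes of each complex, levels in EpiLCs were between 86.0% and 98.5% of those in ESCs. The 92 genes together held 22691 ± 312 TPM in ESCs (SD, n = 3) and 20804 ± 339 TPM in EpiLCs, or 2.27% and 2.08% of all TPM. Complex IV genes summed to 5691 ± 179 and 4892 ± 154 TPM, which puts EpiLCs at 86.0% of the ESC level. Complex III genes summed to 2136 ± 73.0 and 1899 ± 17.2 TPM, or 88.9%. The ATP synthase genes summed to 8324 ± 103 and 7685 ± 69.2 TPM, or 92.3%. Complexes I and II stood closest to their ESC levels. Complex I genes summed to between 5632 and 5755 TPM in ESCs and between 5394 and 5593 TPM in EpiLCs, or 96.4%. Complex II genes summed to between 615.5 and 620.5 TPM in ESCs and between 603.8 and 615.4 TPM in EpiLCs, or 98.5%. The 3 libraries of each group did not overlap for any of the 5 sums, although for complex II the nearest libraries almost touched. No test was made of these sums or of the differences between complexes.

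**Figure D2:**
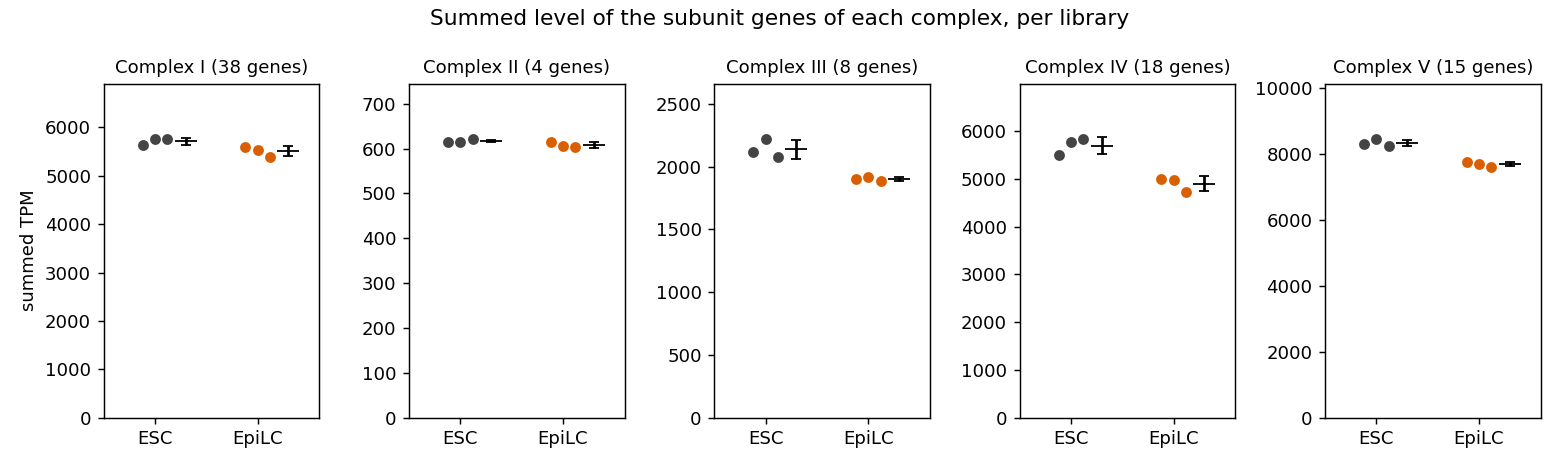
Summed level in TPM (y axis, from 0) of the genes of complexes I to V in each library, with ESC libraries in grey, EpiLC libraries in orange, and the mean ± SD of 3 libraries in black. The separation of groups is widest in complexes III, IV and V and narrow in complexes I and II.

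The promoters of 4 members are shown because they set the largest called fall and rise in complex I among genes above 10 TPM beside the main flavoprotein of complex II, which did not pass the test, and the largest fall in the ATP synthase. Each is the 250 bases before the RefSeq start site (build GRCm38.p6), 5′ to 3′ on the strand of the gene, with motif matches in capitals. Ndufb4 (chr16:37654369-37654618, minus strand) holds 3 matches to a motif of NRF1, a regulator of many respiratory genes, spelled as GCGCA, any base and GCGC. They begin 191, 79 and 22 bases before the start. Sdha (chr13:74350241-74350490, minus strand) also holds 3, beginning 98, 55 and 10 bases before the start. Ndufa12 (chr10:94198785-94199034, plus strand) holds no match to any motif searched. Atp5l (chr9:44920743-44920992, minus strand) holds 1 match to CCGGAAG, bound by GABPA and other ETS factors, read on the opposite strand and beginning 212 bases before the start.
Ndufb4: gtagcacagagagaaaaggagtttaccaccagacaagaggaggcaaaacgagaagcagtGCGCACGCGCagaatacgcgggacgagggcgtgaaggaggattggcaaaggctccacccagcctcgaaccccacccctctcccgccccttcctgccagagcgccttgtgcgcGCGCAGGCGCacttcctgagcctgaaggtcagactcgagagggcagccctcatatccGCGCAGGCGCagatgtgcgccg
Sdha: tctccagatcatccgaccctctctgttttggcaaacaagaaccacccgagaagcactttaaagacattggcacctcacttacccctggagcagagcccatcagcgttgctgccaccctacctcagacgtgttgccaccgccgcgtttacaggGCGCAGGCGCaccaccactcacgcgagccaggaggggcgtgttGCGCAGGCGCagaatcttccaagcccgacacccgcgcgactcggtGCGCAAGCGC
Ndufa12: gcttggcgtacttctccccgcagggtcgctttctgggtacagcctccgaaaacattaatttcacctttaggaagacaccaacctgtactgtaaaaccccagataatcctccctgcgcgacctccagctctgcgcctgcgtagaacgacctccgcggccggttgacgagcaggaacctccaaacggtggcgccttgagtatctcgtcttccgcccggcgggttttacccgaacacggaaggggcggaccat
Atp5l: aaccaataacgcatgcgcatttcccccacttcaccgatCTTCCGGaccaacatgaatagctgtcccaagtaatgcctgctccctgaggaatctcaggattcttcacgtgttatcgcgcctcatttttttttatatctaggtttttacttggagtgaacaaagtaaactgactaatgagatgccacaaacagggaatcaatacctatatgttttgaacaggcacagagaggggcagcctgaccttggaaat

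Counted on both strands over the 300 bases around any RefSeq start of a gene, the NRF1 motif stood in 19 of the 74 members with a RefSeq promoter under the same symbol (25.7%) and in 10.8% of the 11157 tested genes with one. This form was searched after the Ndufb4 promoter had been seen. Its stricter form, with T as the free base, stood in 7 members (9.46%) and in 2.23% of tested genes. The ETS letters CCGGAAG stood in 18 members (24.3%) and 18.7% of tested genes, and AAGATGGCG, bound by YY1, in 8 members (10.8%) and 3.33%. Of the estrogen-related receptor letters TCAAGGTCA, matches stood in Atp5g3 and Sdhd, 2.70% of members against 0.314% of tested genes. The NRF1 motif was found in 8 of 24 lower members, 0 of 2 higher members and 10 of 45 that did not pass the test. The 74 also hold Ndufs5, with the motif, and Cox7b2 and Cox8b, without it, none of which passed the filter on low counts. A match is a run of letters and not a measured binding site.

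Complex I had calls in both directions. Of 37 genes tested, 10 were lower (27.0%) and 2 higher (5.41%), with a median log2 fold change of -0.10, which was between -0.06 and -0.05 with library totals, limma or the length offset. Between 6 and 11 were lower and between 1 and 6 higher over the alternatives. The share of lower calls was near the 22.8% of all genes, and the share of higher calls stood beside 22.6%. Among the 7 core subunits, which carry the flavin and iron-sulfur clusters and are conserved from bacteria, 1 was lower and 1 higher. Of the 29 accessory subunits tested, 8 were lower (27.6%) and 1 higher. Ndufb genes, whose products sit mainly in the distal membrane arm, had 5 of 10 lower (median -0.23), and Ndufs genes, most of them core or peripheral arm subunits, 0 of 7 lower and 1 higher (median 0.06). Of the 17 fits, the lower calls of Ndufb6 and Ndufb10 held in 5 and 7, and Ndufb7 passed as higher in 6. The higher call of Ndufs8 held in 13.

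Ndufb4, an accessory subunit of the membrane arm, had the largest fall in complex I among genes above 10 TPM. It stood at 273, 258 and 309 TPM in ESC replicates 1 to 3 and 139, 151 and 150.0 TPM in EpiLC replicates 1 to 3. Every EpiLC library lay below every ESC library, and EpiLCs held 50.4% of the ESC level (log2 fold change -0.99 ± 0.10, adjusted p = 0.000446). RefSeq also names Ndufb4b and Ndufb4c, which were not analysed here, and Ndufb4 counts were whole numbers, to within 0.005, in 6 of 6 libraries.

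Ndufv3, an accessory subunit of the NADH-oxidizing module, was at 180.3, 163 and 203 TPM in ESC replicates 1 to 3 and 133, 145 and 129 TPM in EpiLC replicates 1 to 3. The groups did not overlap, and ESC replicate 2 was the ESC library nearest to the EpiLCs (log2 fold change -0.56 ± 0.11, adjusted p = 0.006). Ndufb11, a further membrane arm subunit, was at 125, 120.3 and 129 TPM in the ESC libraries and 102, 98.3 and 96.2 TPM in the EpiLC libraries. All EpiLC values again lay below the ESC values (log2 fold change -0.39 ± 0.07, adjusted p = 0.00549). Ndufv1, the core subunit that binds NADH and flavin mononucleotide, fell from 134 ± 9.53 to 109 ± 2.64 TPM (log2 fold change -0.35 ± 0.08, adjusted p = 0.00966). The other lower complex I subunits with more than 10 TPM were Ndufa11, Ndufb5, Ndufa9, Ndufb10 and Ndufb6, with log2 fold changes from -0.34 to -0.23. Of the 17 fits, Ndufb6 was called in 5, Ndufb10 in 7 and Ndufa11 in 11, and Ndufa9 and Ndufb5 in 16 and 17.

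The 2 higher genes were both in the arm that faces the matrix. Ndufa12, an accessory subunit near the junction of the NADH-oxidizing and ubiquinone-reducing modules, was at 233, 209 and 208 TPM in ESC replicates 1 to 3 and 298, 295 and 271 TPM in EpiLC replicates 1 to 3. Every EpiLC library exceeded every ESC library (log2 fold change 0.36 ± 0.07, adjusted p = 0.00809), and the call held in all 17 fits. Ndufs8, a core iron-sulfur subunit of the ubiquinone module, was at 75.7, 81.6 and 81.3 TPM in ESC replicates 1 to 3 and 101, 102 and 96.5 TPM in EpiLC replicates 1 to 3. The groups did not overlap (log2 fold change 0.28 ± 0.08, adjusted p = 0.0231), but the call was lost without ESC replicate 1 (adjusted p = 0.0813), EpiLC replicate 1 (0.0989) or EpiLC replicate 2 (0.0789). Ndufab1, the mitochondrial acyl carrier protein, came close, at 122 ± 2.28 TPM in the ESC group and 144 ± 4.86 TPM in the EpiLC group (log2 fold change 0.19 ± 0.06, adjusted p = 0.0516), and passed as higher in 7 of the 17 fits. The 13 complex I genes with a positive fold change included 3 of the 7 core genes, Ndufs1, Ndufs3 and Ndufs8.

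Ndufs5 had too few counts for the filter and has no result in the test used here. It had between 3.03 and 9.56 expected counts per library (0.47 to 2.07 TPM), while the tested accessory subunits of complex I had means over the 6 libraries between 25.3 and 515 TPM. Its expected counts were not whole numbers in any of the 6 libraries, which means that reads were divided between it and other rows, and its level is uncertain. Counts were also not whole for Cox7c in 6 libraries, Ndufa7 in 5 and Atp5j2 in 2.

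Ndufa4 was placed in complex I by its symbol, although its product is now assigned to complex IV. It was at 515, 539 and 516 TPM in the ESC libraries and 523, 522 and 477 TPM in the EpiLC libraries, with overlapping groups (log2 fold change -0.10 ± 0.06, adjusted p = 0.221). Ndufa4l2, its hypoxia-inducible paralogue, was one of the 3 tested members with the lowest levels, at 8.16, 3.33 and 15.4 TPM in ESC replicates 1 to 3 and 0.94, 0.97 and 1.37 TPM in EpiLC replicates 1 to 3. The groups did not overlap although the ESC libraries differed among themselves, and ESC replicate 2, with the most fibroblast marker RNA, had the lowest of the ESC values (log2 fold change -3.10 ± 0.58, adjusted p = 0.00529). The size of this difference varied with the fit, from -3.49 without ESC replicate 2 to -2.44 without ESC replicate 3 and -2.06 with limma on log2(TPM + 1). Ndufa4l2 made up 1.69% ± 1.15 of the Ndufa4 and Ndufa4l2 TPM in ESCs and 0.217% ± 0.0600 in EpiLCs (SD, n = 3).

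**Figure D3:**
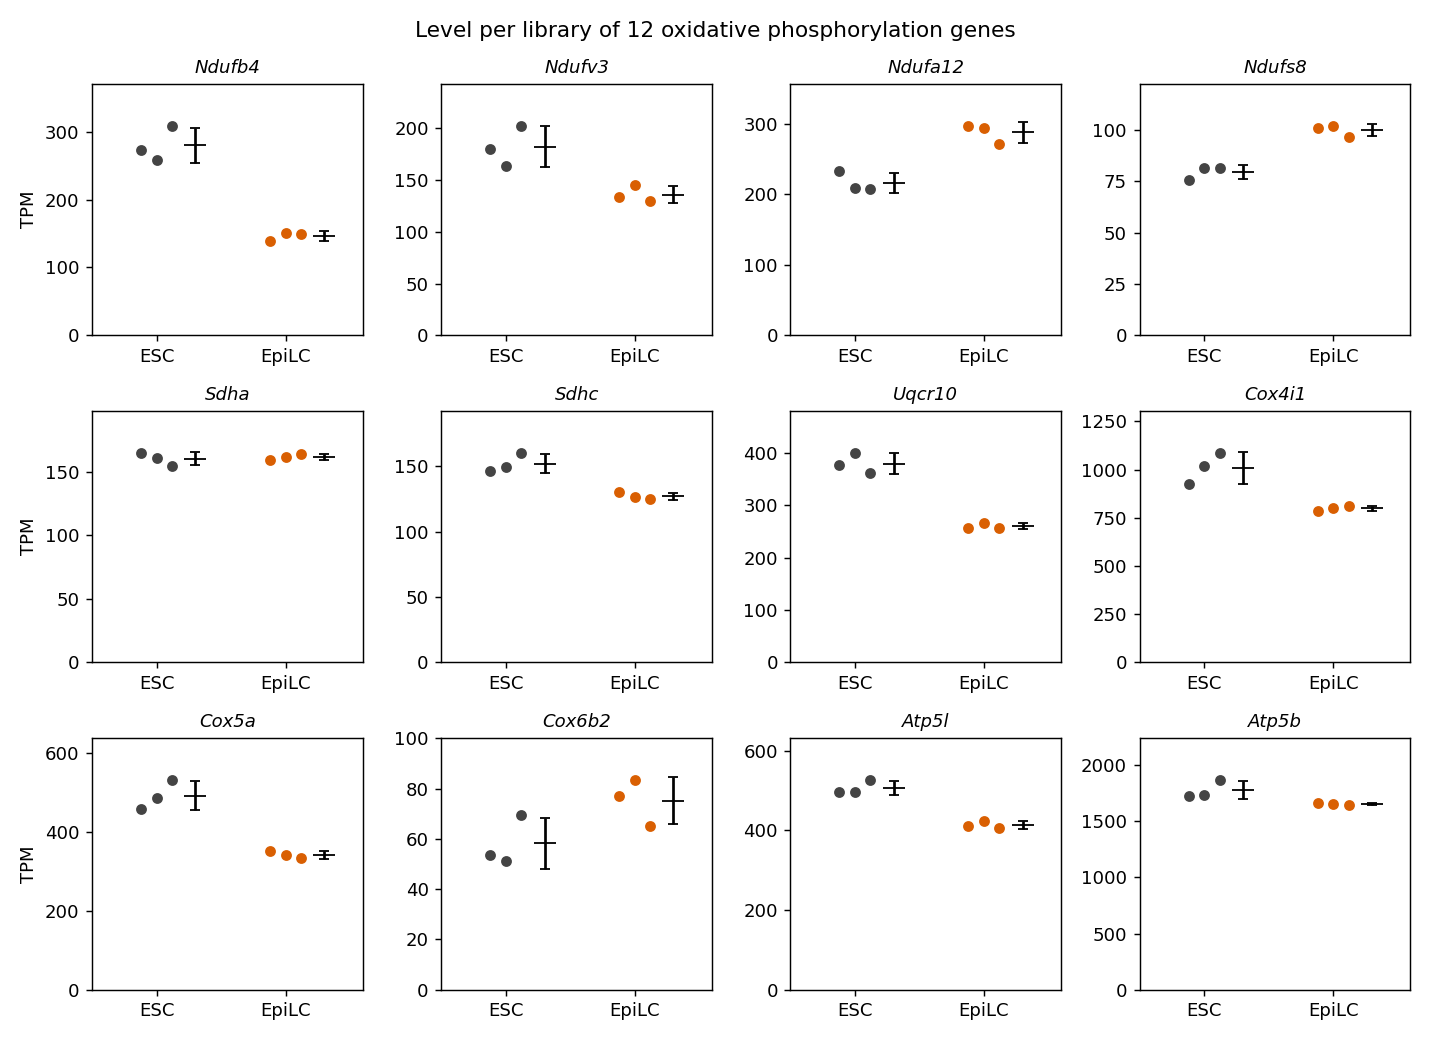
Level in TPM (y axis, from 0) of 12 members in each library, with ESC libraries in grey, EpiLC libraries in orange, and the mean ± SD of 3 libraries in black. Ndufb4 is near 280 TPM in ESCs and 147 TPM in EpiLCs, Ndufa12 and Ndufs8 are higher in all 3 EpiLC libraries, and the groups overlap for Sdha and Cox6b2.

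Complex II had 1 lower call among its 4 genes, near the share of all genes (22.8%), with a median log2 fold change of -0.02. Sdhc, a membrane anchor that holds heme and the ubiquinone site together with Sdhd, was at 147, 149 and 160.5 TPM in ESC replicates 1 to 3 and 130.1, 127 and 125 TPM in EpiLC replicates 1 to 3. The EpiLC libraries all lay below the ESC libraries (log2 fold change -0.31 ± 0.07, adjusted p = 0.00967), and this call held in all 17 fits. Sdhd, the other anchor, was at 153, 171 and 136 TPM in the ESC libraries and 164, 156 and 159.5 TPM in the EpiLC libraries. The EpiLC values fell within the range of the ESC values (log2 fold change 0.01 ± 0.09, adjusted p = 0.958). Sdha, the flavoprotein that oxidizes succinate, was at 165, 161 and 154 TPM in the ESC libraries and 159, 161 and 164 TPM in the EpiLC libraries, again with overlapping groups (log2 fold change -0.04 ± 0.05, adjusted p = 0.586). Sdhb, the iron-sulfur subunit, was at 151, 134 and 169 TPM in the ESC libraries and 162, 161 and 155 TPM in the EpiLC libraries and overlapped as well (log2 fold change 0.02 ± 0.10, adjusted p = 0.874). The sign of these last 3 fold changes turned under some alternatives, and the ESC libraries spread more widely than the EpiLC libraries for each. The 95% intervals of their log2 fold changes were -0.16 to 0.09 for Sdha, -0.21 to 0.25 for Sdhb and -0.20 to 0.21 for Sdhd.

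In complex III all 8 genes taken by symbol had negative fold changes, and 4 passed the test (median -0.17), where 7256 of all 14468 genes had negative fold changes and 22.8% were called lower. Cyc1, a complex III gene that the symbol rule leaves out, had a log2 fold change of 0.17 that did not pass, and is described below. Uqcr10, a small subunit at the edge of the complex, was at 376, 399.7 and 360.4 TPM in ESC replicates 1 to 3 and 257, 266 and 257 TPM in EpiLC replicates 1 to 3. The highest EpiLC value lay well below the lowest ESC value (log2 fold change -0.59 ± 0.07, adjusted p = 0.000686). Uqcrc1, a core subunit on the matrix side, was at 239.6, 255 and 258 TPM in the ESC libraries and 215, 220.3 and 224 TPM in the EpiLC libraries. Here again the groups were separate (log2 fold change -0.24 ± 0.06, adjusted p = 0.0147). Uqcrq, a membrane subunit next to the cytochrome b core, was at 86.7, 92.3 and 91.2 TPM in the ESC libraries and 78.9, 81.6 and 79.4 TPM in the EpiLC libraries, also without overlap (log2 fold change -0.22 ± 0.06, adjusted p = 0.0255). Uqcrb, the fourth, passed narrowly (log2 fold change -0.19 ± 0.06, adjusted p = 0.0379), and Uqcrfs1, the Rieske iron-sulfur protein, was at 167, 168 and 169 TPM in the ESC libraries and 166, 163 and 161 TPM in the EpiLC libraries and did not pass (log2 fold change -0.09 ± 0.05, adjusted p = 0.209). Only Uqcr10 was called in this complex without EpiLC replicate 1 or without EpiLC replicate 2. Uqcrc1 then had an adjusted p of 0.0764 or 0.0614, and Uqcrq 0.113 or 0.0873, and the Uqcrq call was also lost without EpiLC replicate 3 (0.0731) or ESC replicate 3 (0.0536), with library totals (0.0511) and without a filter (0.0513). Of the 17 fits, Uqcrc1 was called in 15, Uqcrq in 10 and Uqcrb in 4.

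Complex IV had the lowest median of the 5 complexes, at -0.32, with 7 of 14 tested genes lower and none higher, against 22.8% and 22.6% of all genes. Its 7 lower genes were all among the 11 genes counted here as main forms, every one of which had a negative fold change. Cox5a, which joins the complex early in its assembly with Cox4i1, was at 459, 485 and 532 TPM in ESC replicates 1 to 3 and 351, 341 and 333 TPM in EpiLC replicates 1 to 3. The lowest ESC library was far above the highest EpiLC library (log2 fold change -0.58 ± 0.08, adjusted p = 0.0013). Cox4i1, the common form of subunit IV, was among the 3 members with the highest levels, at 924, 1019 and 1087 TPM in ESC replicates 1 to 3 and 786, 799 and 812 TPM in EpiLC replicates 1 to 3. No EpiLC library reached the lowest ESC value (log2 fold change -0.39 ± 0.08, adjusted p = 0.00604). Cox6c, a membrane subunit, was at 461, 505 and 469 TPM in the ESC libraries and 398, 399 and 366 TPM in the EpiLC libraries, and here too every EpiLC value was the lower (log2 fold change -0.35 ± 0.07, adjusted p = 0.00505). Cox7b (log2 fold change -0.35 ± 0.06, adjusted p = 0.0043), Cox8a (log2 fold change -0.34 ± 0.06, adjusted p = 0.00419) and Cox6b1 (log2 fold change -0.32 ± 0.06, adjusted p = 0.0062) were lower as well and were called in every fit. Cox6a1 was also lower (log2 fold change -0.32 ± 0.09, adjusted p = 0.0258), but the call was lost without ESC replicate 3 (adjusted p = 0.0558) or EpiLC replicates 1 (0.0516), 2 (0.07) or 3 (0.0863). The 4 main forms that did not pass were Cox5b, Cox7c, Cox7a2l and Cox7a2, with log2 fold changes from -0.16 to -0.06. Cox7a2l is counted among them by its symbol.

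None of the 3 tissue-restricted paralogues with enough counts for the filter passed the test. Cox6b2, known from testis, was at 53.5, 51.3 and 69.6 TPM in ESC replicates 1 to 3 and 77.1, 83.4 and 64.9 TPM in EpiLC replicates 1 to 3. The groups overlapped through ESC replicate 3 and EpiLC replicate 3 (log2 fold change 0.32 ± 0.16, adjusted p = 0.153), and without ESC replicate 3 it passed as higher (adjusted p = 0.0359). As a share of Cox6b1 and Cox6b2 together it was 8.33%, 7.91% and 10.7% in ESC replicates 1 to 3 and 12.9%, 14.6% and 12.3% in EpiLC replicates 1 to 3, which did not overlap. No test was made of this share. Markers of testis germ cells summed to between 3.01 and 5.23 TPM in all 6 libraries. Nearly all of this was Ldhc, at 2.80 to 5.23 TPM, while Acrv1 and Tnp1 were at 0 throughout and Prm1 at 0.21 TPM or less.

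Cox7a1, the form of heart and skeletal muscle, was at 15.2, 11.8 and 11.9 TPM in the ESC libraries and 8.96, 10.4 and 8.37 TPM in the EpiLC libraries. Its groups did not overlap, yet it did not pass (log2 fold change -0.54 ± 0.23, adjusted p = 0.091), and of the alternatives only limma called it lower (adjusted p = 0.0379 and 0.0341). It made up 3.00% ± 0.476 of Cox7a1, Cox7a2 and Cox7a2l TPM in ESCs and 2.26% ± 0.237 in EpiLCs. Markers of muscle or heart, at 6.15 to 7.12 TPM in ESCs and 14.4 to 15.8 TPM in EpiLCs in sum, were higher in EpiLCs for Myh6 and Actn2, the only 2 of the 4 tested. Of the others, Tnnt2 was at 0.59, 1.88 and 0.91 TPM in the ESC libraries and 0.34, 0.30 and 0.30 TPM in the EpiLC libraries, lower without overlap, and Ckm had means of 0.207 and 0.203 TPM. Cox4i2, the form known from lung, had the lowest level of any tested member, at 3.47, 0.57 and 2.00 TPM in the ESC libraries and 1.73, 1.90 and 1.87 TPM in the EpiLC libraries (log2 fold change -0.22 ± 0.52, adjusted p = 0.753), and the sign of its fold change turned without ESC replicate 1 (0.34) and with limma (0.04 and 0.17). Cox6a2, Cox7b2 and Cox8c had means of at most 1.25 TPM in either group and did not pass the filter on low counts. Cox8b had 0 counts in every library, where 3 counts would have been a CPM (counts scaled to the library total) between 0.0855 and 0.177, so that a level under this limit was not detectable. This limit covers counting error only.

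The ATP synthase genes were the most abundant, and 14 of 15 had a negative fold change, 7 of them called (46.7%, against 22.8% of all genes, with a median of -0.17). Of the genes not called, Atp5e and Atp5k had fold changes on either side of 0 over the alternatives. Atp5l, subunit g of the membrane part, where the enzyme forms dimers, was at 496, 496 and 527 TPM in ESC replicates 1 to 3 and 412, 423 and 405 TPM in EpiLC replicates 1 to 3. All EpiLC values were the lower ones (log2 fold change -0.34 ± 0.06, adjusted p = 0.00389). Atp5c1, the gamma subunit of the rotating central stalk, was at 492, 446 and 446 TPM in the ESC libraries and 384, 389 and 395 TPM in the EpiLC libraries. The EpiLC libraries lay close together and below every ESC library (log2 fold change -0.30 ± 0.06, adjusted p = 0.00695). Atp5j, the coupling factor of the peripheral stalk, was at 459, 481 and 431 TPM in the ESC libraries and 398, 392 and 352 TPM in the EpiLC libraries (log2 fold change -0.30 ± 0.07, adjusted p = 0.0163). Its groups did not overlap, but the call was lost without EpiLC replicate 2 (adjusted p = 0.056) or 3 (0.058).

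The stalk and membrane genes Atp5h, Atp5o and Atp5j2 were lower too, with log2 fold changes from -0.25 to -0.20. Atp5j2 was called in 9 of the 17 fits. The catalytic core did not pass the test. Atp5b, the beta subunit and the most abundant member, was at 1729, 1732 and 1868 TPM in ESC replicates 1 to 3 and 1664, 1651 and 1649 TPM in EpiLC replicates 1 to 3. Every EpiLC library was below every ESC library by a small step (log2 fold change -0.15 ± 0.06, adjusted p = 0.0584), and without ESC replicate 2 the gene passed as lower (adjusted p = 0.0489), as it did with DESeq2 (0.0267) and the length offset (0.0475). Atp5a1, the alpha subunit and the third most abundant, was at 891, 877 and 934 TPM in the ESC libraries and 865, 859.9 and 891 TPM in the EpiLC libraries, with overlapping groups (log2 fold change -0.10 ± 0.05, adjusted p = 0.175). Only 3 of the 15 genes were called without EpiLC replicate 1, without EpiLC replicate 2 or without EpiLC replicate 3.

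The membrane c ring is encoded by Atp5g1, Atp5g2 and Atp5g3, whose mature proteins are the same. Atp5g1 was at 272, 337 and 271 TPM in the ESC libraries and 243, 249 and 252 TPM in the EpiLC libraries, highest in ESC replicate 2 and without overlap (log2 fold change -0.29 ± 0.09, adjusted p = 0.0406). Its call was lost without any one EpiLC replicate, with adjusted p between 0.0855 and 0.131, and also with the replicate numbers as a block (0.0588), library totals (0.0668), no filter (0.0511), the length offset (0.067) and limma (0.0664 and 0.0646), so that it held in 8 of the 17 fits. Atp5g2 was at 589, 557 and 623 TPM in the ESC libraries and 575, 562 and 543 TPM in the EpiLC libraries, with overlap (log2 fold change -0.13 ± 0.07, adjusted p = 0.149). Atp5g3 was at 635, 716 and 574 TPM in the ESC libraries and 674, 672 and 649.6 TPM in the EpiLC libraries, with EpiLCs inside the ESC range (log2 fold change 0.00 ± 0.08, adjusted p = 0.986) and a fold change on either side of 0 among the alternatives. Of the TPM of the 3 genes, Atp5g1 took 19.2% ± 1.52 in ESCs and 16.8% ± 0.604 in EpiLCs, Atp5g2 38.8% ± 3.95 and 38.0% ± 0.494, and Atp5g3 42.0% ± 2.70 and 45.2% ± 0.187.

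Among the 9 factors that the symbols take in without being subunits, 1 was lower (11.1%) and none higher, against 22.8% and 22.6% of all genes, with a median of -0.08. Ndufaf5, a methyltransferase-like protein that hydroxylates Ndufs7 during assembly of complex I, was at 7.59, 9.70 and 8.71 TPM in ESC replicates 1 to 3 and 5.55, 6.18 and 5.74 TPM in EpiLC replicates 1 to 3. The groups did not overlap (log2 fold change -0.63 ± 0.14, adjusted p = 0.0119), and without EpiLC replicate 1 the gene did not pass (adjusted p = 0.0597). Atp5s, also called factor B, was one of the 3 tested members with the lowest levels, at 5.95 ± 0.464 TPM in the ESC group and 4.84 ± 0.806 TPM in the EpiLC group (log2 fold change -0.35 ± 0.21, adjusted p = 0.201). Ndufaf3 had the highest fold change of the 9, at 13.3, 10.7 and 16.3 TPM in the ESC libraries and 17.2, 18.0 and 18.7 TPM in the EpiLC libraries, and did not pass the test (log2 fold change 0.36 ± 0.19, adjusted p = 0.152). Its groups did not overlap, and it passed as higher without ESC replicate 3.

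Genes that work beside the complexes were counted from lists of the same pathway, to be read against the 22.8% of all genes that were lower and the 22.6% that were higher. Of 10 electron carriers and subunits with other symbols, 3 were lower and 2 higher (median -0.05, and from -0.08 to 0.00 over the alternatives). Each of these 2 counts ran from 1 to 3 over the alternatives. Cycs, cytochrome c itself, was at 137, 134 and 113 TPM in the ESC libraries and 158, 156 and 165 TPM in the EpiLC libraries, higher in all EpiLC libraries (log2 fold change 0.27 ± 0.08, adjusted p = 0.033). Its call was lost without EpiLC replicate 1, 2 or 3 (adjusted p = 0.0887, 0.0605 and 0.0955) and with the length offset (0.0523). Cyc1, the cytochrome c1 subunit of complex III, was at 193, 217 and 215 TPM in the ESC libraries and 244, 246 and 241 TPM in the EpiLC libraries. Its groups did not overlap, in the opposite order to that of the called complex III genes, and it did not pass (log2 fold change 0.17 ± 0.07, adjusted p = 0.072), though it passed without ESC replicate 3 (0.0493), with library totals (0.0286) and with limma (0.0165 and 0.0166). Gpd2, the mitochondrial glycerol-3-phosphate dehydrogenase, which passes electrons to ubiquinone, was at 46.6, 43.8 and 44.2 TPM in the ESC libraries and 78.7, 75.1 and 78.1 TPM in the EpiLC libraries. It was higher in every EpiLC library (log2 fold change 0.73 ± 0.06, adjusted p = 0.000214). Etfb, a subunit of the electron carrier of fatty acid oxidation, was at 109, 112 and 129 TPM in the ESC libraries and 65.1, 65.8 and 70.4 TPM in the EpiLC libraries, lower in every EpiLC library (log2 fold change -0.86 ± 0.10, adjusted p = 0.000799).

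Of 47 assembly factors with other symbols, 9 were lower and 1 higher (median -0.03), but over the alternatives between 2 and 10 were lower and between 0 and 8 higher, and the median ran from -0.04 to 0.03. Lyrm7, which helps insert the Rieske protein into complex III, fell the most, from 2.15 ± 0.606 to 0.910 ± 0.113 TPM (log2 fold change -1.27 ± 0.28, adjusted p = 0.0107). The 8 other lower factors were Nubpl, Timmdc1 and Foxred1 of complex I, Sdhaf4 of complex II, Bcs1l and Ttc19 of complex III and Cox11 and Cox18 of complex IV, with log2 fold changes from -0.64 to -0.27. Uqcc1, Uqcc2 and Uqcc3, which also serve complex III, were at 0.03, -0.02 and 0.16 and did not pass the test. Tmem242, an assembly factor of the ATP synthase, was the higher one, at 68.3 ± 6.82 TPM in the ESC group and 88.6 ± 4.77 TPM in the EpiLC group (log2 fold change 0.33 ± 0.10, adjusted p = 0.0315). That call was lost without ESC replicates 1 or 3 (adjusted p = 0.0911 and 0.0628) and EpiLC replicates 1 or 3 (0.119 and 0.0899). Without EpiLC replicate 1 only 2 of the 47 were lower.

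Regulators of mitochondrial biogenesis and mitochondrial DNA expression had 6 of 23 tested genes lower and 6 higher (median 0.07). Each count is 26.1%, near the share over all genes, and the higher calls ranged from 2 to 9 over the alternatives. The median ran from 0.01 without ESC replicate 2 to 0.12 without EpiLC replicate 2, and was 0.02 without EpiLC replicate 3. Esrrb, an estrogen-related receptor of naive pluripotency that is also one of the ESC markers, was at 186, 208 and 295 TPM in the ESC libraries and 2.68, 2.55 and 3.01 TPM in the EpiLC libraries (log2 fold change -6.44 ± 0.23, adjusted p = 1.83e-05). The other lower genes were Tefm, Tfb1m, Polrmt and Tfb2m, which act in mitochondrial transcription or its ribosome, and Gabpa, the ETS factor named above, at a log2 fold change of -0.34. The higher genes included the mitochondrial DNA polymerase Polg (0.52), its accessory subunit Polg2 and the replicative helicase Twnk (0.34), beside Mterf3, Mterf4 and the ETS partner Gabpb1, with log2 fold changes from 0.28 to 0.34. Polg2 was at 9.33, 8.73 and 9.46 TPM in the ESC libraries and 13.9, 13.0 and 16.1 TPM in the EpiLC libraries (log2 fold change 0.61 ± 0.15, adjusted p = 0.0159) and missed the threshold without EpiLC replicates 1 or 3 (adjusted p = 0.0563 and 0.0562).

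The tricarboxylic acid cycle, which supplies NADH and succinate, was listed together with pyruvate dehydrogenase, which feeds it. Of the 18 genes, 2 were lower and 2 higher (median -0.05, from -0.08 to 0.00 over the alternatives), and 1 of the lower genes, Pdha1, belongs to pyruvate dehydrogenase. The alternatives gave 1 to 4 lower and 1 to 3 higher. Pdha1, the alpha subunit of pyruvate dehydrogenase, was at 244, 244 and 258 TPM in the ESC libraries and 147, 143 and 154 TPM in the EpiLC libraries. It lay far below the ESC range in every EpiLC library (log2 fold change -0.80 ± 0.06, adjusted p = 0.000207). Of the same enzyme complex, Pdhb, Dlat and Pdhx had log2 fold changes of -0.04, 0.05 and -0.13, and none of them passed the test. Dlst, a subunit of the 2-oxoglutarate dehydrogenase, was at 115, 105 and 101 TPM in the ESC libraries and 139.9, 138 and 136 TPM in the EpiLC libraries, above the ESC range in every EpiLC library (log2 fold change 0.32 ± 0.06, adjusted p = 0.00584). The 13 mitochondrially encoded subunits were not analysed here.

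**Figure D4:**
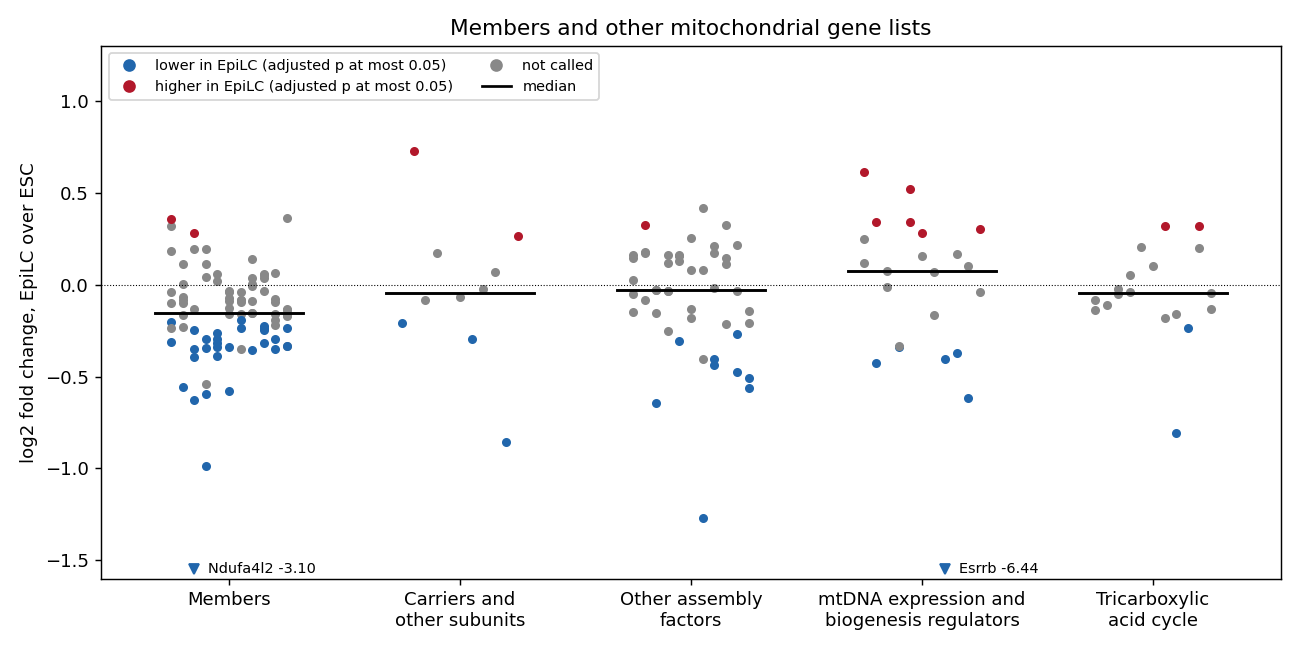
Log2 fold change (EpiLC over ESC, y axis) of the members and of the tested genes of 4 other mitochondrial lists (x axis), 1 point per gene, with the median of each list as a black line. Blue and red points passed the test as lower and higher. Medians run from -0.16 for the members to 0.07 for the regulators, and Ndufa4l2 (-3.10) and Esrrb (-6.44) are drawn at the lower edge.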

How the data were processed

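The authors trimmed adapters with cutadapt 1.16, mapped strand-specific single-end reads of 76 bases with STAR 2.5.2a to mm10 and quantified genes with RSEM 1.3.0. They deposited unnormalized expected counts, where RSEM splits reads shared between genes, and TPM, which are scaled for transcript length and library. The labels give 48 h for EpiLCs, the culture methods 72 h.

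Expected counts were rounded to whole numbers, scaled by TMM (factors 0.979 to 1.02), filtered with filterByExpr and tested with the quasi-likelihood test of edgeR 4.0.16 (R 4.3.3), with Benjamini-Hochberg adjustment over all genes tested and a threshold of 0.05. No block was used. The test was checked on simulated data. Alternatives were DESeq2 1.42.0, other normalizations and filters, limma 3.58.1 on log2(TPM + 1) and log2(TPM + 0.1), a length offset in 20 bins, a replicate block and leaving out each library.

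Members and lists were chosen with earlier results of these data known. Genes were named by rule: the 3 largest called rises and falls per complex above a mean of 10 TPM, all of complex II, isoform pairs, the largest called rise and fall of the assembly factors and of each list, Cyc1 and Cycs, and the 3 highest and 3 lowest levels. Ndufv1, Ndufab1, Ndufaf3, Uqcrb, Uqcrfs1 and other genes given with a fold change alone were named after their values were seen. Mitochondrially encoded genes were not analysed here. Promoters are from RefSeq (GRCm38.p6), matched by symbol.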

Additional observations from a re-analysis of the deposited data

How the results depend on the processing

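The 30 lower calls numbered between 23 and 33 under other tools, normalizations and filters (DESeq2 33, no filter 24, library totals 23), and between 18 and 29 with 1 library left out, with 18 without EpiLC replicate 1 and 18 without EpiLC replicate 2. The 2 higher calls became 4 with upper-quartile normalization, 4 with library totals only, 4 with the length offset, 6 with limma on log2(TPM + 1) and 6 with limma on log2(TPM + 0.1), and between 1 and 4 with 1 library left out. The members' median of -0.16 was -0.13 with upper-quartile normalization, -0.11 with library totals, -0.12 with the length offset and -0.10 in both limma fits, and between -0.17 and -0.13 with 1 library left out. The median of all genes moved with it, from 0.00 to 0.02 with upper-quartile normalization, 0.04 with library totals and 0.05 or 0.06 with limma, and the members' median minus that of all genes was -0.15 or -0.16 in each of these fits, as against -0.15 with TMM scaling and -0.11 with the length offset. Whether replicate numbers pair the samples was not settled. Same-numbered libraries deviated together with r = 0.01, 0.19 and 0.17, and differently numbered libraries with r from -0.21 to 0.08. With the replicate block there were 23 lower and 1 higher calls, and Atp5g1, Atp5j2, Cox6a1, Ndufb10, Ndufb6, Uqcrb, Uqcrq and Ndufs8 were not called, nor were Cycs (adjusted p = 0.0589) and Tmem242 (0.0651) of the other lists. By complex, the lower calls over all alternatives ranged from 6 to 11 (I), 1 to 4 (III), 6 to 8 (IV) and 3 to 8 (V), with 1 throughout in complex II, and the higher calls of complex I from 1 to 6. In the lists outside the symbol rule, higher calls ranged from 1 to 3 for carriers, 0 to 8 for assembly factors, 2 to 9 for regulators and 1 to 3 for the list of the tricarboxylic acid cycle and pyruvate dehydrogenase, and lower calls from 1 to 3, 2 to 10, 4 to 8 and 1 to 4. The medians of complex II, the carriers, the assembly factors and the cycle list lay on either side of 0. The sign turned in at least 1 alternative for 13 of the 55 members that did not pass the test and for none of the 32 that did. The 5 of them that the text follows singly are given next. Sdha was at 0.00893 with library totals and 0.0148 and 0.0149 with limma. Leaving out 1 library put Sdhb between -0.0631 and 0.124 (negative without ESC replicate 1, at -0.00116, or 2), Sdhd between -0.0588 and 0.0880 (negative without ESC replicate 1, ESC replicate 3 or EpiLC replicate 1), Atp5g3 between -0.0586 and 0.0836 (negative without those same libraries) and Cox4i2 between -0.609 and 0.336 (positive without ESC replicate 1). Sdhd was also negative with DESeq2 (-0.00153), its size factors (-0.00257) and the length offset (-0.00407), and Atp5g3 with DESeq2 (-0.00625) and its size factors (-0.00685). Cox4i2 was at 0.0367 and 0.174 with limma. The causes were not tested. With 3 libraries per group, 55 members had differences too small to pass the test at this depth and spread, which does not show that their levels were equal.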
